A study of Homo sapiens with 9 samples.

Results

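Loss of TAZ was set directly against loss of YAP in LX2 cells, an immortalised human line of hepatic stellate cell origin; stellate cells are the main source of collagen-producing myofibroblasts in liver fibrosis. The comparison was chosen by label: the 3 libraries titled siTAZ (siTAZ1 to siTAZ3) against the 3 titled siYAP (siYAP1 to siYAP3), 6 of the 9 libraries of the series. Cells of the siYAP group had received 20 nM of an siRNA against YAP by lipofection, and cells of the siTAZ group 20 nM of an siRNA against TAZ. The other 3 libraries (siNT) came from cells given a non-targeting siRNA in the same way, and serve here as the control level. All 9 cultures were unmodified LX2 cells grown in serum-containing medium and kept for 7 days, and bulk RNA was sequenced from each. The cells are 1 immortalised line, the sources used here give no siRNA sequences, and no group lost both factors or had a factor restored. Replicates are described as biological, without a statement of what separated them.

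YAP (gene YAP1) and TAZ (gene WWTR1) are paralogous transcriptional coactivators at the end of the Hippo kinase cascade. When the kinases LATS1 and LATS2 are inactive, YAP and TAZ enter the nucleus and act there mainly on TEAD proteins, which bind DNA, to drive genes of growth, cytoskeleton and matrix such as CCN1, CCN2 and ANKRD1. In hepatic stellate cells both are known to become active as the cells turn into contractile myofibroblasts on stiff matrix. They share many partners but are separate proteins with their own regulation, and how far one stands in for the other differs between tissues.

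The libraries held 16498508 to 18752805 counts in genes, so that 1 count was worth 0.0522 to 0.0591 CPM (the counts of a gene per 1000000 counts of its library, after TMM scaling between libraries). Of 36601 genes, 15560 had enough counts to be tested. Reads in no annotated gene made up 6.01% to 7.49% of the siYAP libraries, highest in siYAP1, 5.53% to 5.63% of the siTAZ libraries and 4.73% to 5.13% of the siNT libraries. Mitochondrially encoded genes took 0.73% to 1.07% of the gene counts after siYAP, 1.44% to 1.65% after siTAZ and 1.27% to 1.49% after siNT. Of 13 stellate cell markers 11 were tested. Among them were VIM (vimentin) at 486 and 403 CPM and the receptor PDGFRB at 41.2 and 111 CPM (means, siYAP and siTAZ). The intermediate filament DES stayed under 1 CPM in every library, and DCN, COLEC10 and COLEC11 stayed at or under 1.12 CPM. By the test described below, 5 of the 11 were higher and 3 lower in siTAZ than in siYAP, against 33.0% and 33.2% of all genes. Hepatocyte markers were under 1 CPM in all libraries for 9 of 10 genes, leukocyte markers for 7 of 12 and endothelial markers for 5 of 10.

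Each siRNA lowered the transcript it was aimed at. YAP1 (ENSG00000137693; chromosome 11, 102110461 to 102233423, plus strand; positions here and below are from GENCODE 29, GRCh38) had 28.04, 25.7 and 25.2 CPM in the siYAP libraries, 176, 161 and 174 CPM in the siTAZ libraries and 212, 212 and 205 CPM in the siNT libraries. WWTR1 (ENSG00000018408; chromosome 3, 149517235 to 149736714, minus strand) had 76.2, 75.2 and 75.9 CPM after siYAP, 8.61, 9.56 and 10.4 CPM after siTAZ and 66.1, 64.1 and 55.8 CPM after siNT. The groups did not overlap for either gene, and in each case the library group labelled with the siRNA was the lowest. YAP1 was 6.45-fold higher in siTAZ than in siYAP (log2 2.69 ± 0.05, SE; edgeR, adjusted p = 8.73e-50), and WWTR1 was 7.96-fold lower. The paralog left in place was not at the control level: WWTR1 lay above siNT after siYAP (log2 0.29) and YAP1 lay below siNT after siTAZ (log2 -0.30). WWTR1-AS1 lies antisense to WWTR1 exons, and no source used here states a strand setting for the counting.

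The 6 libraries separated by knockdown for most genes. Of the 15560 genes, 10298 (66.2%) had an adjusted p under 0.05 in the quasi-likelihood test of edgeR and are termed called, 5133 (33.0%) higher and 5165 (33.2%) lower in siTAZ than in siYAP. The sign of this small gap turned with the processing: without a filter on low counts 5293 were higher and 5247 lower. Over all genes the median log2 fold change was -0.007 and its median size 0.43. Past 2-fold, 1336 genes were higher and 1591 lower; past 16-fold, 25 were higher and 162 lower. The siTAZ and siYAP libraries did not overlap for 10619 genes (68.2%). Against the control, siYAP differed from siNT in 67.1% of genes and siTAZ in 34.6%; those comparisons share the siNT libraries.

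**Figure D1:**
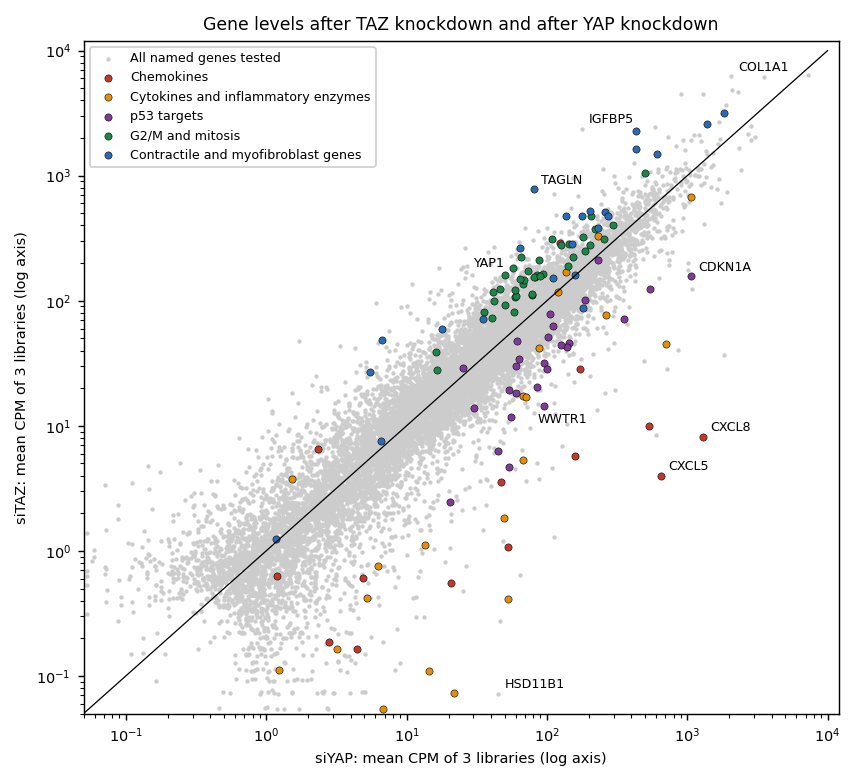
Mean level of each gene with a symbol in the 3 siYAP libraries (x axis, CPM, log axis) and in the 3 siTAZ libraries (y axis, CPM, log axis), with 5 gene lists coloured and equality drawn as a line; genes with a mean at or under 0.05 CPM in either group, CCL20 and CSF3 among them, are not drawn. Most chemokines and cytokines lie below the line, CXCL8 at 1293 against 8.18 CPM, and contractile genes mostly above it, TAGLN at 80.7 against 782 CPM.

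Lists of genes by function gave the outline of the difference. Higher in siTAZ were the 40 tested G2/M genes (40 called), contractile genes (19 of 23), fibrillar collagens (7 of 9) and YAP/TAZ targets (17 of 23), against 33.0% of all genes. Lower in siTAZ were p53 targets (25 of 26), chemokines (12 of 15), cytokines (18 of 22) and NF-kB subunits and feedback genes (18 of 21), against 33.2% of all genes. The plot of list shares shows other lists, such as collagen maturation and basement membrane genes, with about as many members on each side. All list counts given below stand against the same 33.0% and 33.2%. A list near these shares differs little from genes at large. The lists were drawn up with earlier results of these data known, so their direction is a description and not independent evidence.

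**Figure D2:**
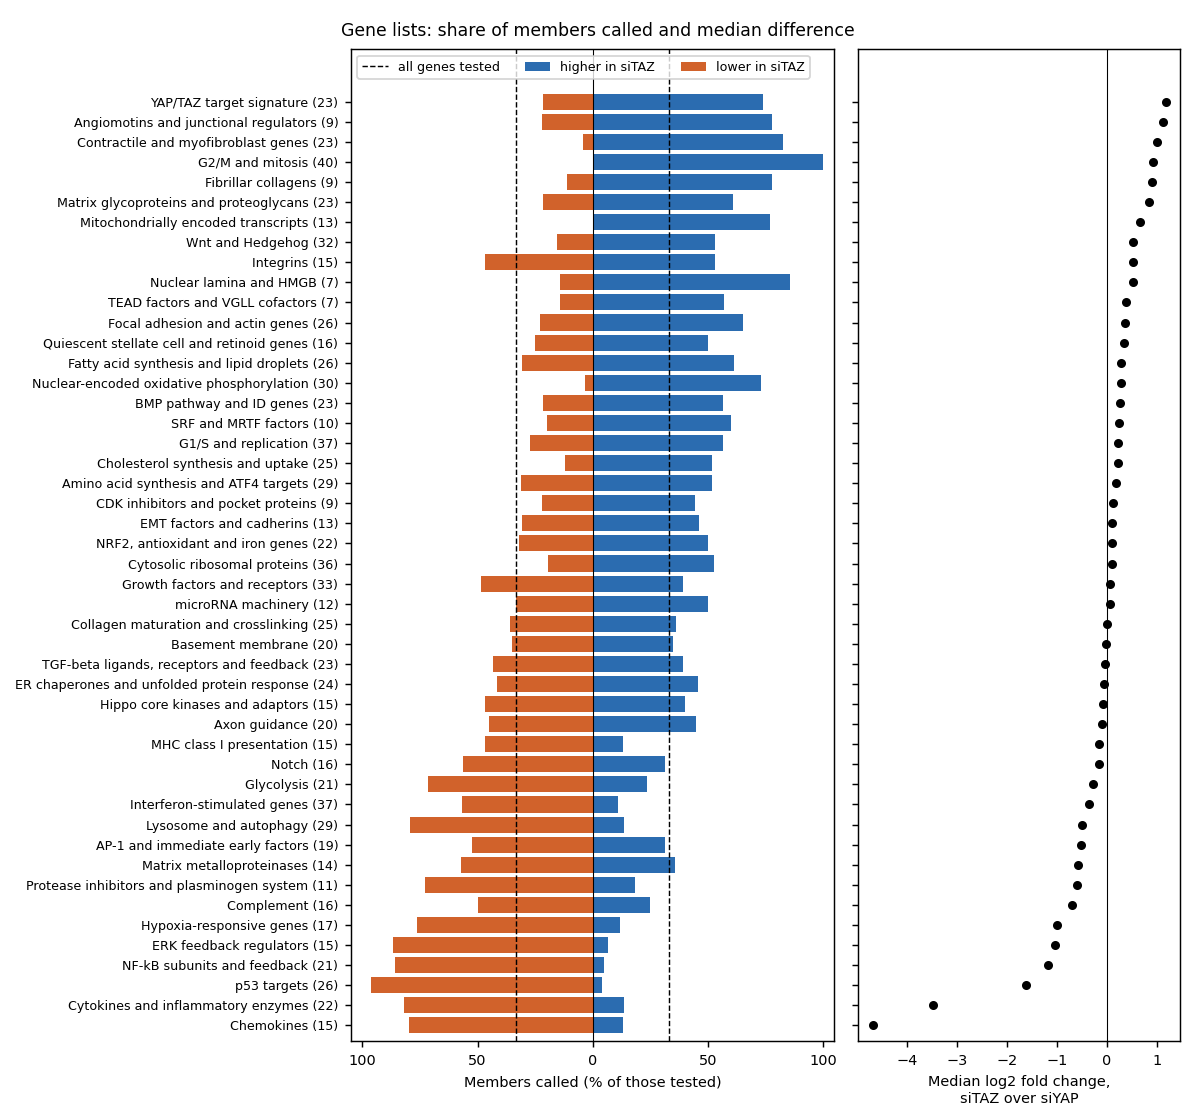
Left, the share of tested members of each list (number in brackets) called higher (blue) or lower (orange) in siTAZ than in siYAP, with dashed lines at the shares over all genes, 33.0% and 33.2%; right, the median log2 fold change of the list, siTAZ over siYAP. Medians run from -4.68 for chemokines to 1.18 for YAP/TAZ targets.

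The TEADs, the DNA-binding partners, differed by under 2-fold. TEAD1 stood at 173, 165 and 171 CPM after siYAP and 234, 219 and 215 CPM after siTAZ. TEAD2 stood at 7.93, 9.13 and 6.68 CPM after siYAP and 14.4, 11.6 and 11.4 CPM after siTAZ. Both were higher in siTAZ, by log2 0.39 ± 0.04 and 0.65 ± 0.13 (SE; edgeR, adjusted p = 1.09e-13 and 1.76e-05), without overlap of the groups. TEAD3 and TEAD4 were not called, and the 95% intervals of their differences were narrow, -0.17 to 0.04 and -0.13 to 0.12 on the log2 scale. The cofactors VGLL3 and VGLL4, which also bind TEADs, went opposite ways. VGLL3 stood at 61.03, 54.9 and 55.2 CPM after siYAP and 166, 173 and 168 CPM after siTAZ. VGLL4 stood at 76.8, 71.7 and 67.3 CPM after siYAP and 28.8, 31.3 and 33.6 CPM after siTAZ. VGLL3 was 2.96-fold higher and VGLL4, known as a repressor of YAP, 2.30-fold lower in siTAZ.

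Upstream in the pathway, 6 of 15 Hippo kinases and adaptors were higher and 7 lower in siTAZ, with a median log2 fold change of -0.07. The kinase activators MOB1A and MOB1B were 2.17-fold and 1.72-fold higher, and the kinase TAOK1 was 2.16-fold lower. LATS2, itself induced by YAP and TAZ in many cells, was 1.27-fold lower, and LATS1 differed by log2 0.00 with a 95% interval of -0.14 to 0.13. Of 9 angiomotins and junctional regulators, which hold YAP and TAZ in the cytoplasm or act on the LATS kinases, 7 were higher and 2 lower. AJUBA, a LIM protein that restrains LATS kinases, stood at 63.3, 61.2 and 58.5 CPM after siYAP and 262, 257 and 259 CPM after siTAZ, a 4.25-fold difference. The siNT libraries, at 264, 256 and 283 CPM, overlapped siTAZ. FAT1, a giant protocadherin upstream of the pathway, went the other way, with 720.0, 576 and 589.9 CPM after siYAP, 162, 144 and 146 CPM after siTAZ and 217 CPM (mean) after siNT.

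Established YAP/TAZ target genes were mostly higher after loss of TAZ than after loss of YAP. CCN2 (connective tissue growth factor, ENSG00000118523; chromosome 6, 131948176 to 131951373, minus strand) stood at 74.7, 69.4 and 65.3 CPM in siYAP, 350.0, 383 and 405 CPM in siTAZ and 374, 382 and 399 CPM in siNT. The siTAZ libraries overlapped the siNT libraries and lay 5.43-fold above the siYAP libraries (log2 2.44 ± 0.05, SE; edgeR, adjusted p = 1.00e-31). ANKRD1, a nuclear ankyrin repeat protein, stood at 34.4, 30.9 and 29.7 CPM in siYAP, 94.6, 103 and 94.8 CPM in siTAZ and 166, 167 and 182 CPM in siNT. It was lower than siNT in both knockdowns, without overlap of the groups, and 3.08-fold higher in siTAZ than in siYAP. TGFB2, a transforming growth factor beta ligand, showed the widest difference of the list, with 28.7, 25.3 and 24.8 CPM in siYAP and 257, 254 and 276 CPM in siTAZ (9.98-fold). An annotated transcript, TGFB2-OT1, overlaps it on the same strand.

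The promoters of CCN2, ANKRD1 and TGFB2 are shown because these 3 targets moved together and their promoters hold GGAATG, the word that TEAD proteins bind. The 250 bases before each start are given from RefSeq (GRCh38.p14), 5′ to 3′ along the gene, with matches to GGAATG or its reverse complement in capitals.
CCN2 (chr6:131951373-131951622, minus strand): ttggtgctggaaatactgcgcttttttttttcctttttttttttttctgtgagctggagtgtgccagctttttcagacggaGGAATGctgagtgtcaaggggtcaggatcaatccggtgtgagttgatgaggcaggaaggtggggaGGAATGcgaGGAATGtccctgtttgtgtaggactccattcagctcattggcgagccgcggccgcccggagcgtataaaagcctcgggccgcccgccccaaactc
ANKRD1 (chr10:90921088-90921337, minus strand): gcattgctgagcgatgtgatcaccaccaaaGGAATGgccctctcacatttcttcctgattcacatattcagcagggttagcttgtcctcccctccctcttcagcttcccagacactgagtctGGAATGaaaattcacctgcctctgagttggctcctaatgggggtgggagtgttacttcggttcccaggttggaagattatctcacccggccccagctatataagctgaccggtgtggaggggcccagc
TGFB2 (chr1:218345086-218345335, plus strand): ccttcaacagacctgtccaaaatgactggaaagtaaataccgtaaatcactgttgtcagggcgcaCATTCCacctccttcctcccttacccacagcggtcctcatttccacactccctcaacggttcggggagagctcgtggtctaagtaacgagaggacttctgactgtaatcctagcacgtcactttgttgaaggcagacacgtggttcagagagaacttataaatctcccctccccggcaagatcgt
CCN2 has 3 matches, which begin 169, 104 and 95 bases before the start, ANKRD1 has 2, at 220 and 128 bases, and TGFB2 has 1, at 185 bases on the opposite strand. None of these overlaps a match to the other words searched, TGANTCA (AP-1), GGANTTTCC (NF-kB) and the CArG box. ANKRD1 also holds a TGANTCA match, left in small letters, 195 bases before the start. In windows from 250 bases before to 50 after the start, on either strand, GGAATG occurs in 11% of the 11713 tested genes with a promoter. It occurs in 18% of those more than 4-fold higher in siTAZ and in 14.7% of those more than 4-fold lower. Past 2-fold the shares were closer to that of all promoters, 13.0% of higher and 11.4% of lower genes. Among YAP/TAZ targets 8 of 18 promoters hold it, and 3 of the 8, those of LATS2, PTPN14 and NUAK2, belong to genes that were lower in siTAZ. A match is a description of the letters and no evidence of binding.

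Across the list, 17 of 23 targets were higher and 5 lower in siTAZ, with a median log2 fold change of 1.18 against -0.007 over all genes. Against siNT the median was -1.39 after siYAP and -0.06 after siTAZ. CCN1 stood at 297, 310.5 and 306 CPM after siYAP and 830.2, 862 and 909.7 CPM after siTAZ (2.85-fold). The receptor tyrosine kinase AXL was 2.54-fold and F3 (tissue factor) 2.32-fold higher in siTAZ. NT5E, the ecto-nucleotidase CD73, was the member that differed most in the other direction, with 917, 908 and 912 CPM after siYAP and 371, 345 and 374 CPM after siTAZ (2.51-fold lower). TNNT2 was not called, and at a mean of 0.132 and 0.154 CPM its difference had a 95% interval of -1.84 to 2.25 on the log2 scale, too wide to place it.

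**Figure D3:**
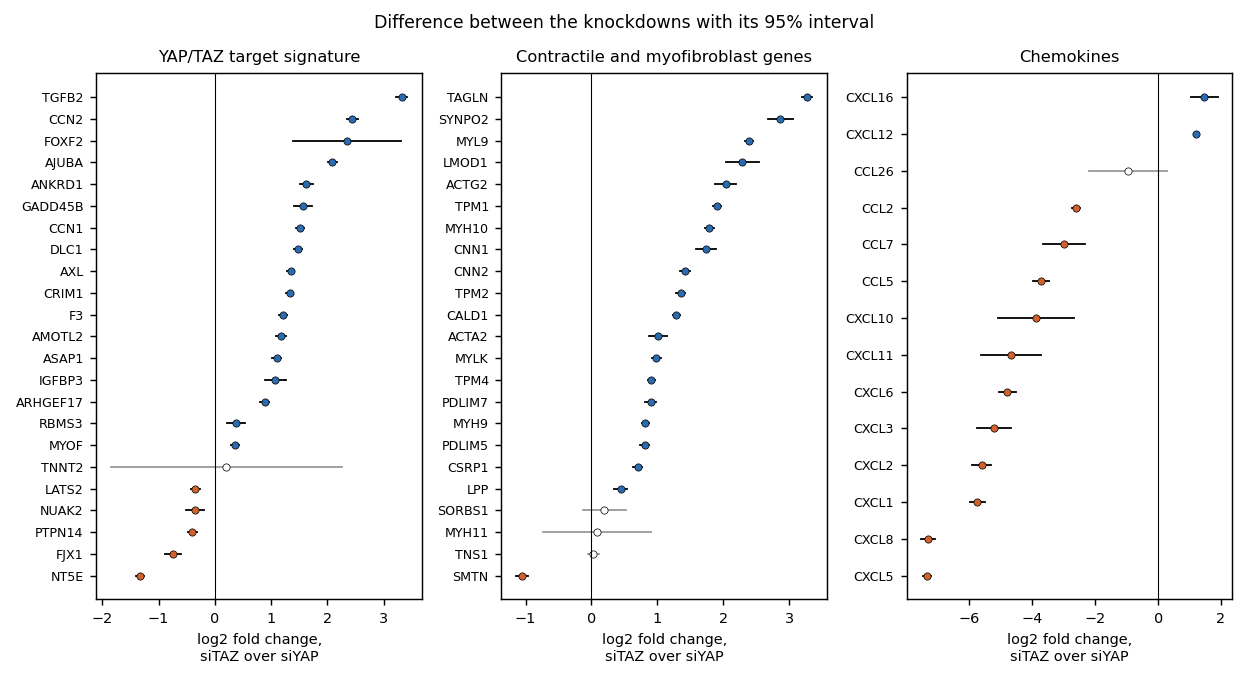
Log2 fold change, siTAZ over siYAP (x axis), of each tested member of 3 lists with its 95% interval as a bar; filled points passed the test, open points did not. TAGLN lies furthest to the right among contractile genes at 3.28, CXCL5 and CXCL8 furthest to the left among the chemokines drawn at -7.35 and -7.30; CCL20, which had no counts after siTAZ, has no interval and is not drawn.

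Genes of the contractile apparatus were higher in siTAZ. TAGLN (transgelin), an actin-binding protein of smooth muscle and myofibroblasts, stood at 85.5, 77.05 and 79.6 CPM in siYAP, 737, 797 and 812 CPM in siTAZ and 567, 549 and 568 CPM in siNT. MYL9, the regulatory light chain of non-muscle and smooth muscle myosin, stood at 439, 427 and 434 CPM in siYAP and 2165, 2339 and 2335 CPM in siTAZ. Both were low in every siYAP library and above siNT in every siTAZ library, and the differences between the knockdowns were 9.69-fold (log2 3.28 ± 0.04, SE; edgeR, adjusted p = 3.66e-59) and 5.26-fold. ACTA2, the smooth muscle actin by which activated stellate cells are usually recognised, stood at 37.1, 32.3 and 36.5 CPM in siYAP, 70.3, 73.5 and 69.3 CPM in siTAZ and 23.5, 20.8 and 23.1 CPM in siNT. It lay above siNT after either knockdown and was 2.01-fold higher in siTAZ than in siYAP; its exons overlap those of FAS on the opposite strand, and FAS stood at 60.3 CPM in siYAP and 18.4 CPM in siTAZ, so its count is uncertain.

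In all, 19 of 23 contractile genes were higher and 1 lower, with a median log2 fold change of 1.01. Among the higher ones were the tropomyosins TPM1 and TPM2 (3.75-fold and 2.56-fold), calponin CNN1 (3.34-fold) and synaptopodin-2, SYNPO2 (7.30-fold). Smoothelin, SMTN, was the lower member, at 180.0, 182 and 181 CPM in siYAP and 87.5, 86.7 and 87.9 CPM in siTAZ. Of 10 genes for SRF, which drives contractile genes, and its cofactors, 6 were higher and 2 lower, none past 2-fold, and SRF itself differed by log2 0.21 ± 0.05. MYOCD (myocardin), the coactivator of SRF in smooth muscle, stood at 52.8 CPM (mean) in siNT, 27.7, 19.5 and 21.8 CPM in siYAP and 18.4, 16.3 and 21.9 CPM in siTAZ, low in both knockdowns. It was called at log2 -0.29 ± 0.11 although the siYAP and siTAZ libraries overlapped, a call lost without siYAP replicate 1 or without siTAZ replicate 1 or 2. Of 26 focal adhesion and actin genes 17 were higher and 6 lower, with the actin crosslinker ACTN4 4.53-fold higher and the adaptor paxillin, PXN, 1.54-fold lower.

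Fibrillar collagens were higher in siTAZ for 7 of 9 tested members and lower for 1. COL1A1 (ENSG00000108821; chromosome 17, 50183289 to 50201632, minus strand), the alpha 1 chain of type I collagen, stood at 1996, 2087 and 2053 CPM in siYAP, 6247, 6221 and 6296 CPM in siTAZ and 4157, 4137 and 4211 CPM in siNT. The siYAP libraries lay below and the siTAZ libraries above every siNT library, a 3.06-fold difference (log2 1.61 ± 0.03, SE; edgeR, adjusted p = 7.58e-55). COL3A1 showed the same order, with 753, 735 and 713 CPM in siYAP and 2104, 2002 and 2019 CPM in siTAZ (2.78-fold). COL1A2, which pairs with COL1A1 in type I collagen, did not follow this order: it stood at 472, 441 and 432 CPM in siYAP, 582, 547 and 578 CPM in siTAZ and 228, 201 and 210.0 CPM in siNT. Both knockdowns lay above siNT for COL1A2, and the difference between them was log2 0.34 (95% interval 0.27 to 0.42). The minor chain COL11A1 was 4.92-fold higher in siTAZ, and COL27A1 2.08-fold lower.

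Glycoproteins of the matrix followed the collagens in part, with 14 of 23 higher, 5 lower and a median of 0.85. Fibronectin, FN1, stood at 1425, 1249 and 1217 CPM in siYAP and 4519, 4430 and 4657 CPM in siTAZ, a 3.5-fold difference. SPARC (osteonectin) stood at 877, 916 and 909 CPM in siYAP and 4471, 4606 and 4487 CPM in siTAZ. It was 5.02-fold higher in siTAZ, and neither gene's groups overlapped. The proteoglycan versican, VCAN, was 6.74-fold higher, whereas tenascin C, TNC, was 1.13-fold lower and CCN3, another matricellular CCN protein, 2.31-fold lower. Enzymes of collagen maturation and crosslinking showed no common direction, with 9 of 25 higher and 9 lower. LOXL2 and LOXL4, lysyl oxidase-like crosslinkers, were 1.82-fold and 5.12-fold higher, while LOX and the prolyl hydroxylase subunit P4HA2 were 1.86-fold and 2.97-fold lower. Among 20 basement membrane genes 7 were higher and 7 lower; the laminin chain LAMB3 stood at 463, 503 and 515 CPM in siYAP and 34.3, 33.5 and 31.7 CPM in siTAZ (14.9-fold lower), and the collagen IV chains COL4A1 and COL4A2 were 2.08-fold and 1.58-fold higher.

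Secreted proteases and the plasminogen system lay mostly on the siYAP side. The collagenase MMP1 stood at 699.7, 736 and 732 CPM in siYAP, 31.1, 28.99 and 25.9 CPM in siTAZ and 86.9, 78.9 and 80.6 CPM in siNT, so that siYAP was above and siTAZ below every siNT library (25.2-fold lower in siTAZ). Stromelysin, MMP3, and the gelatinase MMP9 were 101-fold and 23.7-fold lower, the former on 34 counts summed over the siTAZ libraries against 3510 over the siYAP libraries. Of 14 matrix metalloproteinases 8 were lower and 5 higher, among the latter MMP17 (3.95-fold) and MMP15 (2.13-fold). Of 11 protease inhibitors and plasminogen genes 8 were lower, including the urokinase receptor PLAUR (6.66-fold), urokinase PLAU (4.06-fold) and the inhibitors SERPINB2 (14.1-fold) and TIMP1 (2.95-fold). TIMP3 and RECK, inhibitors bound to matrix and membrane, were the 2 higher members, with TIMP3 at 85.1, 74.2 and 77.9 CPM in siYAP and 286, 307 and 334 CPM in siTAZ.

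Chemokines had the lowest median of any list. CXCL8 (interleukin 8, ENSG00000169429; chromosome 4, 73740506 to 73743716, plus strand), which attracts neutrophils, stood at 1351, 1285 and 1245 CPM in siYAP, 8.93, 8.90 and 6.69 CPM in siTAZ and 37.4, 29.7 and 30.9 CPM in siNT. CXCL5, another neutrophil chemokine, stood at 664, 648 and 648 CPM in siYAP, 4.93, 3.38 and 3.63 CPM in siTAZ and 4.95, 4.72 and 5.49 CPM in siNT. CXCL1 stood at 576, 496 and 529 CPM in siYAP, 12.1, 9.77 and 7.79 CPM in siTAZ and 18.9, 17.4 and 18.9 CPM in siNT. Every siYAP library lay far above, and for CXCL8 and CXCL1 every siTAZ library lay below, the siNT libraries, while for CXCL5 the siTAZ and siNT libraries overlapped. The levels in siTAZ were lower than in siYAP by 158-fold for CXCL8 (log2 -7.30 ± 0.10, SE; edgeR, adjusted p = 6.95e-14), 163-fold for CXCL5 and 53.7-fold for CXCL1. CCL20 had 126, 134 and 111 counts in the siYAP libraries and none in the siTAZ or siNT libraries, at least 40.6-fold lower in siTAZ with 3 counts per library as the floor.

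The promoters of these 3 CXC chemokines are shown because the genes moved together, each by more than 16-fold, and each holds 1 match to GGANTTTCC, a word bound by NF-kB, which drives inflammatory genes. Letters and strand are as above, with the match in capitals.
CXCL8 (chr4:73740319-73740568, plus strand): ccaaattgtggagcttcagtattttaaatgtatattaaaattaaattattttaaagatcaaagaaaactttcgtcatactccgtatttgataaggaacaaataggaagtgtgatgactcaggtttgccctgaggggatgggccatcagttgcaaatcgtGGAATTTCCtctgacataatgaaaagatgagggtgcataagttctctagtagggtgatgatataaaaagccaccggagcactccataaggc
CXCL1 (chr4:73869143-73869392, plus strand): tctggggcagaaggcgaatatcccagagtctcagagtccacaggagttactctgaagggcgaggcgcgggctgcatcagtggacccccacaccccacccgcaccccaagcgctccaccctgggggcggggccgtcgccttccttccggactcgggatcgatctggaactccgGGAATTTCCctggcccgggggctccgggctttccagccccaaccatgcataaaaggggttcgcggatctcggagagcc
CXCL5 (chr4:73998678-73998927, minus strand): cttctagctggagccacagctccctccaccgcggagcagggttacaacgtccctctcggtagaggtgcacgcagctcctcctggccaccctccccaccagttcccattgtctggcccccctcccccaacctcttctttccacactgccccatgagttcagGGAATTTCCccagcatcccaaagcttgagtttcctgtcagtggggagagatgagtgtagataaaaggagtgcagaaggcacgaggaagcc
The matches begin 91, 78 and 90 bases before the start. CXCL8 also holds a match to TGANTCA, left in small letters, 137 bases before the start. Searched on both strands of the windows described above, the word occurs in 1.62% of 11713 promoters, in 8 of 12 chemokine promoters, in 1.0% of genes more than 4-fold higher in siTAZ and in 4.53% of those more than 4-fold lower. TGANTCA, a word bound by AP-1, occurs in 5.0% of all promoters, in 8.0% of genes more than 4-fold higher and in 18.4% of those more than 4-fold lower in siTAZ. Past 2-fold, GGANTTTCC occurred in 1.8% of higher and 3.65% of lower genes, and TGANTCA in 4.12% and 11.9%. CXCL1, CXCL2 and CXCL3 are close paralogs, and reads that fit more than one of them may have been lost or misplaced in counting.

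Across the chemokine list 12 of 15 were lower in siTAZ, with a median log2 fold change of -4.68, which does not change with CCL20 at its bound; against siNT the median was 4.63 after siYAP and -0.32 after siTAZ. CCL2 and CCL5, which attract monocytes and T cells, were 6.07-fold and 13.2-fold lower. The homeostatic chemokine CXCL12 and the transmembrane chemokine CXCL16 were higher, CXCL12 with 125, 124 and 125 CPM in siYAP and 288, 273 and 300.3 CPM in siTAZ. Cytokines and inflammatory enzymes were lower for 18 of 22 and higher for 3, with a median of -3.48. IL6 stood at 72.3, 62.4 and 68.7 CPM in siYAP, 5.68, 5.02 and 5.37 CPM in siTAZ and 7.90, 7.25 and 10.02 CPM in siNT, and IL1B at 715, 703 and 689 CPM in siYAP and 46.4, 40.7 and 48.0 CPM in siTAZ. They were 12.6-fold and 15.6-fold lower in siTAZ, with siYAP high and siTAZ below siNT in each library of IL6. PTGS2 (cyclooxygenase-2) had 3 counts in all siTAZ libraries together against 375 in siYAP, a ratio of 123 with a counting interval of 41.9 to 601. CSF3 (granulocyte colony-stimulating factor) had none against 906, at least 99.0-fold lower in siTAZ. The receptor subunit OSMR and the constitutive cyclooxygenase PTGS1 were higher, by 1.43-fold and 2.44-fold.

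NF-kB subunits and feedback genes were lower for 18 of 21 and higher for 1 (median -1.18). The inhibitor NFKBIA, a feedback gene that NF-kB itself induces, stood at 171, 157 and 163 CPM in siYAP and 68.2, 64.4 and 63.9 CPM in siTAZ. TNFAIP3, a deubiquitinase of the same feedback, stood at 134, 141 and 138 CPM in siYAP and 45.04, 40.7 and 34.3 CPM in siTAZ. Both were lower in every siTAZ library. The subunit RELA was 1.45-fold lower, and NFKB1 was not called (95% interval -0.17 to 0.01 on the log2 scale). Complement genes were lower for 8 of 16 and higher for 4; C3, the central complement component, stood at 594, 581 and 609.8 CPM in siYAP and 11.5, 7.54 and 6.46 CPM in siTAZ. Of 37 interferon-stimulated genes 21 were lower and 4 higher, with TRIM22 3.27-fold lower and the guanylate-binding protein GBP1 2.54-fold higher. Of 15 MHC class I presentation genes 7 were lower and 2 higher, none past 2-fold (median -0.15), against 33.2% and 33.0% of all genes. Against siNT, 13 of them were called higher after siYAP and 11 after siTAZ.

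Some markers of other cell types moved with the inflammatory genes. Of 5 tested leukocyte markers 3 were lower in siTAZ: CD68, also a lysosomal protein, stood at 116, 116 and 112 CPM in siYAP and 14.1, 12.8 and 10.2 CPM in siTAZ, and ITGAM and CSF1R at means of 4.11 and 2.74 CPM in siYAP. The markers CD3E, MS4A1, TYROBP and AIF1 were at or under 0.0589 CPM in every library. The monocyte and macrophage marker CD14 was present in all groups and was not called. It stood at 9.19 to 11.2 CPM in siYAP, 7.59 to 10.2 CPM in siTAZ and 8.8 to 10.6 CPM in siNT. PTPRC (CD45) was at 0.106 to 0.177 CPM in siYAP, 0.108 to 0.71 CPM in siTAZ and 2.15 to 2.99 CPM in siNT, below siNT in both knockdowns. The summed level of the 12 markers was 129 to 134 CPM in siYAP and 23.2 to 25.0 CPM in siTAZ. Most of the siYAP sum was CD68 alone, so the sum does not describe the other markers. SERPINA1 was the 1 of 10 hepatocyte markers tested and 10.0-fold lower, with TTR at 0 in every library. The 10 summed to 13.1 to 16.1 CPM in siYAP and 1.03 to 2.42 CPM in siTAZ. Most of the siYAP sum was SERPINA1, at 12.7 to 15.8 CPM. Of 5 tested endothelial markers 2 were lower, PECAM1 by 17.0-fold, and 1 higher, the cadherin CDH5 by 6.29-fold, with LYVE1 and CLEC4G at 0; the 10 summed to 12.6 to 16.4 CPM in siYAP and 7.85 to 9.06 CPM in siTAZ. Of 6 tested neural and muscle markers 1 was lower, the neurofilament NEFL by 12.1-fold, and 2 were higher, with MYOD1 and MYOG at 0. Of 6 tested cholangiocyte and epithelial markers 3 were higher and 2 lower. KRT8 and KRT18, which have many processed copies in the genome, were 4.10-fold and 2.93-fold higher. The part of other cell types in the results was not tested. In bulk RNA, a change in the number of cells of a kind and a change in RNA per cell cannot be told apart.

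Targets of p53 were lower in siTAZ in 25 of 26 cases, with a median log2 fold change of -1.61; against siNT the median was 2.07 after siYAP and 0.50 after siTAZ. CDKN1A, which encodes the cell cycle inhibitor p21, stood at 999, 1112 and 1089 CPM in siYAP, 155, 170.3 and 147 CPM in siTAZ and 52.9, 55.6 and 50.6 CPM in siNT. MDM2, the ubiquitin ligase of p53, stood at 355, 346 and 357 CPM in siYAP, 74.5, 71.5 and 70.2 CPM in siTAZ and 47.2, 54.4 and 46.4 CPM in siNT. For both genes siYAP was highest and siTAZ lay between siYAP and siNT without overlap, and siTAZ was lower than siYAP by 6.78-fold (log2 -2.76 ± 0.05, SE; edgeR, adjusted p = 8.74e-27) and 4.89-fold. BTG2, an antiproliferative gene, the non-coding RNA PURPL and the stress cytokine GDF15 were 6.61-fold, 11.3-fold and 8.29-fold lower. SESN1 was the 1 member called higher, at log2 0.21 ± 0.09, on overlapping libraries, a call lost without siYAP replicate 1 or 3 and without siTAZ replicate 1 or 3.

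The 40 G2/M and mitosis genes tested were all called higher in siTAZ, from MKI67 at log2 0.29 to KIF20A at 1.77, with a median of 0.92. Cyclin B1, CCNB1, stood at 107, 113 and 107 CPM in siYAP, 304, 310.4 and 319.8 CPM in siTAZ and 374, 382 and 379 CPM in siNT. CCNB1 was lowest in siYAP and between siYAP and siNT in siTAZ, and the mitotic kinase PLK1 was 2.83-fold higher in siTAZ. The proliferation marker MKI67 itself was less far apart, at 262, 252 and 247 CPM in siYAP and 320.5, 312 and 296 CPM in siTAZ. Against siNT the list's median was -1.18 after siYAP and -0.19 after siTAZ. G1/S and replication genes were split, with 21 of 37 higher and 10 lower: the ribonucleotide reductase subunit RRM1 was 2.56-fold higher, while the cyclins CCNE1 and CCND1 were 2.11-fold and 1.77-fold lower. CDK inhibitors other than CDKN1A showed no common direction, with CDKN2B (p15) 2.59-fold lower and CDKN1B (p27) 1.5-fold higher. Lamin B1, LMNB1, which is known to fall in senescent cells, was 1.43-fold higher in siTAZ.

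**Figure D4:**
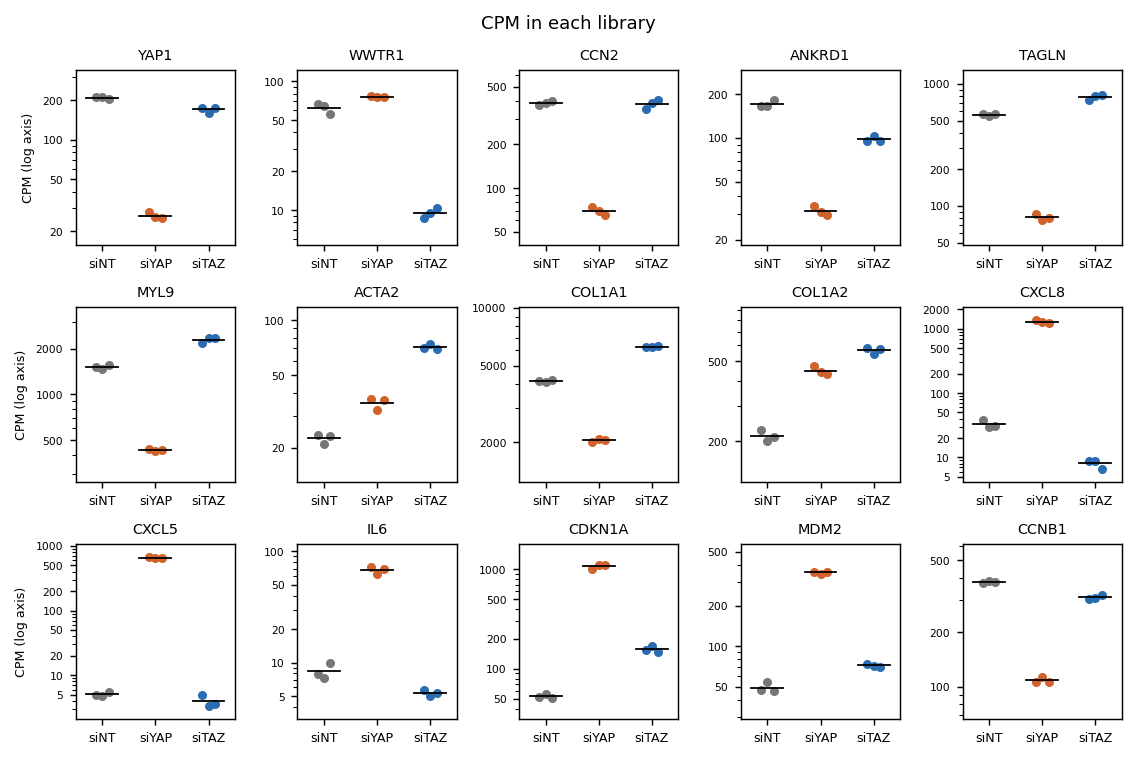
CPM of 15 genes in each library (points; y axis, log axis, scaled per gene) by group, with a line at the group mean. The siYAP points are lowest for CCN2, TAGLN, COL1A1 and CCNB1 and highest for CXCL8, IL6, CDKN1A and MDM2, while COL1A2 lies above siNT in both knockdowns.

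Ligands and receptors moved in both directions. Of 33 growth factor and receptor genes 13 were higher and 16 lower in siTAZ, against 33.0% and 33.2% of all genes. IGFBP5, which binds insulin-like growth factors, stood at 182, 169.9 and 179 CPM in siYAP, 2265, 2395 and 2459 CPM in siTAZ and 4448, 4209 and 4197 CPM in siNT; it was below siNT in both knockdowns and 13.4-fold higher in siTAZ. PDGFB and its receptor PDGFRB, mitogenic for stellate cells, were 6.06-fold and 2.69-fold higher. Hepatocyte growth factor, HGF, and its receptor MET were 13.4-fold and 2.30-fold lower, and so were VEGFA (2.43-fold) and the EGF receptor ligand HBEGF (3.29-fold). Feedback regulators of ERK signalling were lower for 13 of 15 and higher for 1: the phosphatase DUSP6 stood at 53.05, 53.04 and 53.9 CPM in siYAP and 15.9, 15.6 and 14.9 CPM in siTAZ, and SPRED3 and PHLDA1 were 6.29-fold and 3.86-fold lower. The 1 higher member, DUSP1, differed by log2 0.18 ± 0.06 and lost its call without siTAZ replicate 3.

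Among 23 genes of TGF-beta signalling 9 were higher and 10 lower, near the 33.0% and 33.2% of all genes that hold for each list here. The receptors went apart, TGFBR2 2.14-fold higher and TGFBR1 2.89-fold lower, as did the ligands TGFB2, described above, and TGFB1 (2.24-fold lower). In the BMP pathway 13 of 23 were higher and 5 lower, with the secreted FSTL1 at 596, 592 and 569 CPM in siYAP and 2431, 2405 and 2516 CPM in siTAZ and myostatin, MSTN, 8.26-fold higher. Wnt and Hedgehog genes were higher for 17 of 32 and lower for 5; SFRP1, a secreted Wnt antagonist, was 3.71-fold higher, the Hedgehog effector GLI1 2.5-fold higher and the receptor FZD8 5.85-fold lower. Integrins, the receptors for matrix, were higher for 8 of 15 and lower for 7: ITGA4 stood at 5.59, 5.27 and 4.67 CPM in siYAP and 31.3, 31.3 and 34.1 CPM in siTAZ, a 6.21-fold difference. ITGA2 stood at 402, 347 and 366 CPM in siYAP and 71.6, 66.02 and 57.3 CPM in siTAZ. These 2 alpha chains lay on opposite sides, ITGA2 being 5.71-fold lower in siTAZ. Of the Notch genes 5 of 16 were higher and 9 lower, and of the axon guidance genes 9 of 20 each way, with SEMA3A 6.61-fold lower and SEMA3D 3.32-fold higher.

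Among immediate early and AP-1 factors 6 of 19 were higher and 10 lower in siTAZ, against 33.0% and 33.2% of all genes. EGR1, induced by serum and growth factors, stood at 16.1, 23.2 and 20.6 CPM in siYAP and 109.5, 117 and 106 CPM in siTAZ (5.55-fold higher), whereas the AP-1 subunit FOSL1 stood at 465, 486 and 507 CPM in siYAP and 217, 224 and 206 CPM in siTAZ (2.25-fold lower). Hypoxia-responsive genes were lower for 13 of 17, among them ANGPTL4 (19.4-fold) and NDRG1 (3.75-fold), but HIF1A itself was 1.56-fold higher. Glycolytic genes were lower for 15 of 21, mostly by small amounts (median -0.28), with hexokinase HK2 2.56-fold lower. Lysosome and autophagy genes were lower for 23 of 29, led by cathepsin S, CTSS, at 308, 308 and 301 CPM in siYAP and 21.2, 16.8 and 20.4 CPM in siTAZ.

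Genes of oxidative phosphorylation were higher in siTAZ for 22 of 30 nuclear-encoded members (1 lower) and 10 of 13 mitochondrially encoded ones (0 lower), with medians of 0.28 and 0.67. MT-CO1 stood at 2549, 1755 and 1975 CPM in siYAP and 4770, 4457 and 5392 CPM in siTAZ; the mitochondrial share of counts given above moved with it, and the part of RNA quality was not tested. Across the alternatives that kept the fold out of the test, 8 to 13 of the mitochondrially encoded genes were higher. Cholesterol genes were higher for 13 of 25 and lower for 3, with ACAT2 3.11-fold higher and the exporter ABCA1 3.44-fold lower. SCD, which desaturates fatty acids, stood at 64.4, 67.3 and 57.5 CPM in siYAP and 295, 294 and 291 CPM in siTAZ (4.64-fold), among 16 higher and 8 lower of 26 fatty acid and lipid droplet genes. In the antioxidant and iron list 11 of 22 were higher and 7 lower: SOD2, the mitochondrial superoxide dismutase that NF-kB induces, stood at 1984, 1975 and 1965 CPM in siYAP and 210.4, 182 and 176 CPM in siTAZ. IDH1, the cytosolic isocitrate dehydrogenase, stood at 11.9, 11.3 and 9.46 CPM in siYAP and 136, 133 and 136 CPM in siTAZ. SOD2 was 10.4-fold lower and IDH1 12.4-fold higher in siTAZ, without overlap. The amino acid transporter SLC7A5 and the serine synthesis enzyme PHGDH were 6.52-fold and 3.06-fold higher.

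Where the average log2 CPM reached 3, the widest differences upward outside the lists above began with TLL1, NPPB, KRT81 and SCN9A. TLL1, a tolloid-like protease that processes procollagen, stood at 2.13, 1.77 and 1.24 CPM in siYAP, 50.02, 45.2 and 48.05 CPM in siTAZ and 43.1, 37.9 and 42.9 CPM in siNT (27.5-fold higher in siTAZ). NPPB, the natriuretic peptide BNP, stood at 5.21, 6.47 and 6.45 CPM in siYAP, 87.7, 98.2 and 101 CPM in siTAZ and 83.2, 79.3 and 90.5 CPM in siNT (15.8-fold). For both the siYAP libraries were low and apart from the rest, and for TLL1 each siTAZ library was above each siNT library. The hair keratin KRT81, which has a near-identical paralog in KRT86, was 15.8-fold and the sodium channel SCN9A 12.8-fold higher. The receptors CHRM2 and KIT, the teneurin TENM2, the imprinted hydrolase MEST and the thymosin TMSB15A were 11.9-fold, 9.85-fold, 11.2-fold, 10.8-fold and 11.7-fold higher.

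In the other direction the widest differences outside the lists were in HSD11B1, MGAT4C, SERPINB7, LINC00520 and TFPI2. HSD11B1 (ENSG00000117594; chromosome 1, 209686178 to 209734950, plus strand), which regenerates active cortisol, had 844, 883 and 738 counts in the siYAP libraries and 3, 1 and 0 in the siTAZ libraries, a ratio of 608 with a counting interval of 237 to 2230. MGAT4C, a Golgi glycosyltransferase, had 2522 counts in siYAP and 15 in siTAZ, a ratio of 166 (100 to 297). These intervals cover counting error only. SERPINB7, a serine protease inhibitor of epithelia, stood at 118, 113 and 107 CPM in siYAP, 0.866, 1.31 and 1.73 CPM in siTAZ and 5.01, 5.64 and 6.62 CPM in siNT, so that siYAP was above and siTAZ below siNT. TFPI2, a Kunitz-type inhibitor of matrix proteases, stood at 1808, 1863 and 1839 CPM in siYAP and 41.4, 41.1 and 28.3 CPM in siTAZ (49.6-fold lower). LINC00520, a long non-coding RNA, was 51.8-fold lower, on 26 counts in siTAZ.

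For many genes the knockdowns lay on opposite sides of the control. Of 10426 named genes whose average log2 CPM reached 3, 593 were below siNT after siYAP and above it after siTAZ, and 609 the reverse. Each was called in all 3 comparisons, with no minimum fold on either side. In the test against a fold of 1.5, only 342 of all genes tested differed between siTAZ and siNT. The genes named here lay furthest from siNT on both sides and do not show the usual size. EDIL3, an extracellular integrin ligand, stood at 157, 148 and 152 CPM in siYAP, 972, 944 and 982 CPM in siTAZ and 546, 525 and 512 CPM in siNT. SLC7A5, a large neutral amino acid transporter, stood at 33.8, 41.7 and 38.1 CPM in siYAP, 224, 261 and 255 CPM in siTAZ and 136, 148 and 134 CPM in siNT. VCAN showed the same order, with 17.2, 13.8 and 19.3 CPM in siYAP, 119, 111 and 108 CPM in siTAZ and 43.6, 37.9 and 41.3 CPM in siNT. In each the 3 groups were separate, with siYAP low and siTAZ high. The chemoattractant RARRES2 (chemerin), the ligand EGF, the membrane glycoprotein CD200, the transcription factor KLF9 and the actin nucleator LMOD1 completed the genes named upward.

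The reverse order held for EPAS1 (HIF-2 alpha), an oxygen-sensitive transcription factor, which stood at 1028, 1129 and 1110 CPM in siYAP, 127, 130.3 and 113 CPM in siTAZ and 382, 393 and 378 CPM in siNT. LRRC15, a leucine-rich repeat membrane protein known from activated fibroblasts, stood at 25.96, 28.1 and 29.03 CPM in siYAP, 3.03, 3.11 and 3.52 CPM in siTAZ and 7.60, 8.98 and 9.001 CPM in siNT. CSF2 (GM-CSF), a cytokine of myeloid cells, had 22 counts over the siTAZ libraries and 2875 over the siYAP libraries, with 2.59, 1.96 and 1.47 CPM in siNT. For EPAS1, LRRC15 and CSF2 the 3 groups were again separate, with siYAP high and siTAZ low. MMP1, SERPINB7, CXCL8, HSD11B1 and the non-coding RNA LINC02154 were the others named. For HSD11B1 the side below siNT rests on few counts, 3, 1 and 0 in siTAZ against 7, 5 and 8 in siNT. The siNT libraries enter both sides of this pattern, so the sides are a description; the siTAZ with siYAP difference does not rest on them.

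**Figure D5:**
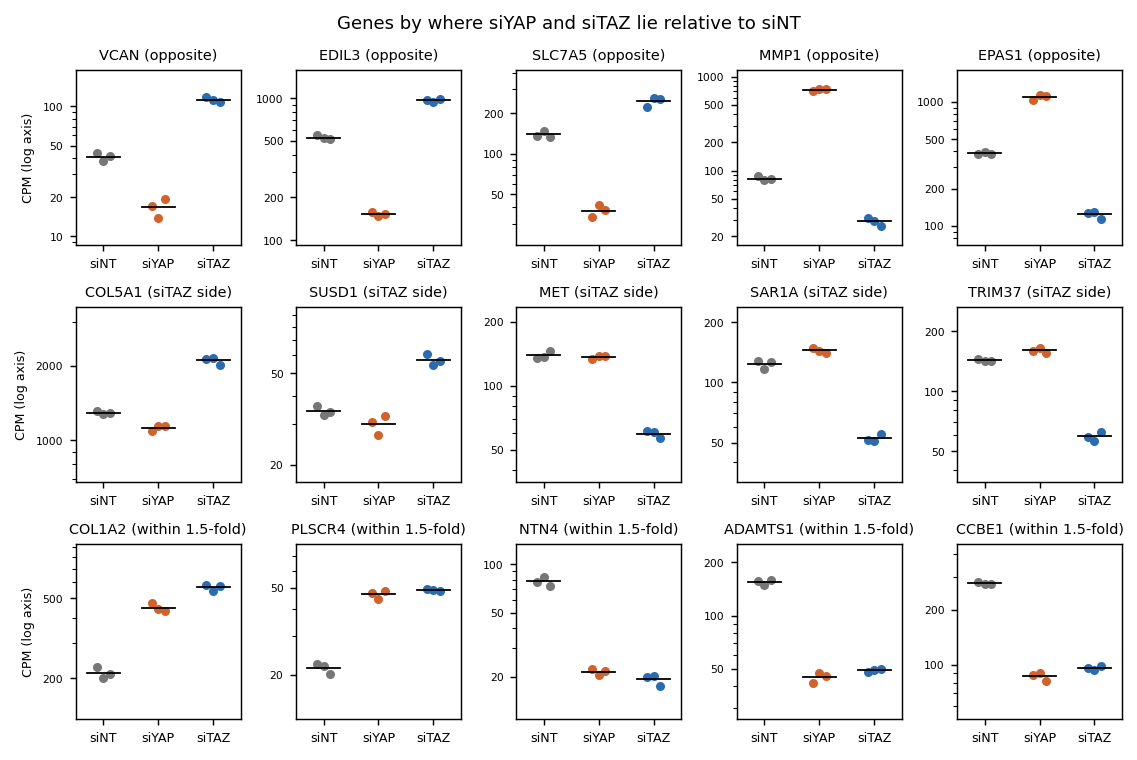
CPM of 15 genes in each library (points; y axis, log axis, scaled per gene) with a line at the group mean: top row, siYAP and siTAZ on opposite sides of siNT; middle row, siTAZ away from siNT with siYAP close to it; bottom row, siYAP and siTAZ within 1.5-fold of each other and both away from siNT. In the bottom row the siYAP and siTAZ points overlap for PLSCR4 and lie close without overlap for NTN4.

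A TAZ side was defined by siYAP within log2 0.26 of siNT and siTAZ called against both: 499 genes were higher and 589 lower in siTAZ. The rule does not ask that siYAP equal siNT, so it shares genes with the opposite sides: COL5A1, SAR1A and TRIM37, named next, were called in all 3 comparisons. COL5A1, a regulatory chain of collagen fibrils, stood at 1087, 1136 and 1142 CPM in siYAP, 2127, 2155 and 2020 CPM in siTAZ and 1309, 1270 and 1289 CPM in siNT. GLT8D2, a putative glycosyltransferase, stood at 9.42, 10.5 and 11.7 CPM in siYAP, 28.1, 27.9 and 27.1 CPM in siTAZ and 11.9, 10.6 and 11.6 CPM in siNT. Both were high in every siTAZ library, 1.87-fold and 2.63-fold above siYAP. MET, the receptor for hepatocyte growth factor, stood at 134, 139 and 139 CPM in siYAP, 61.3, 60.7 and 56.6 CPM in siTAZ and 136, 137 and 147 CPM in siNT. SAR1A, a GTPase of vesicle coats, stood at 149, 144 and 141 CPM in siYAP, 51.4, 50.9 and 55.1 CPM in siTAZ and 129, 117 and 126 CPM in siNT. TRIM37, a ubiquitin ligase, stood at 159.9, 165 and 156 CPM in siYAP, 58.8, 56.1 and 62.7 CPM in siTAZ and 144, 142 and 142 CPM in siNT. These 3 were low in every siTAZ library, 2.30-fold, 2.76-fold and 2.71-fold below siYAP, and the Wnt receptor FZD4 was 2.45-fold lower.

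A short word in 3′ UTRs was examined for the genes lower on the TAZ side. The word ATGAAC, picked in earlier work on these same data as one related to the siTAZ group, is shown at its first site in the 7 named genes with an annotated UTR, 5′ to 3′ in GENCODE 29 transcripts (GRCh38), with the word in capitals and DNA letters.
SAR1A: cacagcttcctcATGAACttttctaataga
TRIM37: acagtggcttacATGAACgtgaaactgtga
ARFIP1: ttaccgttatacATGAACtttgtggactgt
FZD4: agaccatatgaaATGAACtgcaaactctaa
MET: acatgtttataaATGAACaggatgtaatgt
FAM199X: gtgtttgttatcATGAACattagaaatagc
PPIL1: tacttactacacATGAACcataatgctgct
SAR1A holds the word 5 times, FAM199X 3 times and MET 2 times, and the other 4 genes once. Of the 8 genes named as higher on the TAZ side, 2 hold it, SUSD1 and COL5A1, once each. Among 10188 genes with a searched UTR the word occurred in 31.6%, in 46.2% of 578 genes lower on the TAZ side and in 27.9% of 494 genes higher there. By UTR length, the shares of lower and of higher genes were 16.3% and 6.13% in the shortest of 3 classes. They were 41.5% and 23.9% in the middle class and 71.6% and 53% in the longest. The word was picked from these same data, so the shares, also by length, are a description and no independent support.

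A second word from the same earlier work, GGATAA, was related to the siYAP group. It occurred in 26.7% of the searched UTRs. The share was 42.0% of genes more than 2-fold higher in siTAZ (that is, lower in siYAP) and 21.9% of those more than 2-fold lower. Among all called genes, the shares of higher and of lower ones with GGATAA were 9.27% and 5.92% in the shortest UTR class. They were 27.8% and 16.6% in the middle class and 57.5% and 45.3% in the longest for GGATAA. IDH1 holds it 2 times, first as ctgagctaagaaGGATAAttgtcttttggt, and so does TLL1, first as ttggttgtcttaGGATAAttgctgactttg. Of 5626 genes whose UTR holds neither word, 73.9% were called, 38.5% higher and 35.3% lower. Of all 10188 genes with a searched UTR, 76.5% were called, 40.7% higher and 35.8% lower. Those 10188 are only part of the 15560 tested genes, of which 66.2% were called. CXCL8, CDKN1A, COL1A1, TAGLN and WWTR1 hold neither word. YAP1 holds both, ATGAAC 3 times and GGATAA 2 times. COL1A2 and MKI67 hold ATGAAC 2 times each and CCN2 holds it 1 time, all without GGATAA. Of the other widest upward differences, SCN9A, CHRM2, TMSB15A, TENM2 and MEST hold GGATAA, whereas NPPB, KRT81, IGFBP5, TGFB2 and KIT do not. TLL1 holds ATGAAC as well. The siRNA sequences are unknown here, so the share called among genes with neither word is no test of siRNA action. Both words were picked from these data, so their shares, also by UTR length, are descriptions and no independent support. The part of siRNA action outside the intended targets in any gene's difference was not tested.

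Some genes were far from the control and alike, that is within 1.5-fold of each other, in both knockdowns. In a test against a fold of 1.5, 342 genes differed between siTAZ and siNT and 3852 between siYAP and siNT. How many lay more than 2-fold from siNT after siTAZ was not counted, so the numbers below give no rate of alike genes. Of the 15560 genes, 6382 had a 95% interval of the difference within 1.5-fold either way, and 2798 of the 5262 genes not called lay within it; the other uncalled genes were not measured closely enough to say. Of the named genes whose average log2 CPM reached 3 and whose interval lay within log2 0.58 either way, 5 were more than 2-fold above siNT and 15 more than 2-fold below siNT in both knockdowns. PLSCR4, a phospholipid scramblase, stood at 47.7, 44.5 and 48.7 CPM in siYAP, 49.6, 48.7 and 48.3 CPM in siTAZ and 22.3, 21.98 and 20.1 CPM in siNT. NPTX1, a neuronal pentraxin, stood at 14.9, 16.1 and 17.1 CPM in siYAP, 20.5, 18.4 and 17.4 CPM in siTAZ and 4.60, 2.82 and 2.21 CPM in siNT. NTN4, a netrin of basement membranes, stood at 22.1, 20.4 and 21.8 CPM in siYAP, 19.8, 20.3 and 17.5 CPM in siTAZ and 77.6, 83.1 and 73.2 CPM in siNT. In none of these 3 did the knockdowns differ past the threshold (95% intervals -0.08 to 0.20, -0.02 to 0.48 and -0.33 to 0.01 on the log2 scale), and in each both lay apart from siNT. The siYAP and siTAZ libraries overlapped for PLSCR4, whereas NPTX1 and NTN4 had separate libraries.

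Downward, ADAMTS1, a secreted metalloprotease, stood at 41.8, 47.4 and 45.5 CPM in siYAP, 48.3, 49.1 and 50.1 CPM in siTAZ and 158, 149 and 159 CPM in siNT. Its difference between the knockdowns, log2 0.13 (95% interval 0.01 to 0.25; edgeR, adjusted p = 0.0427), passed the threshold, and the call was lost without siYAP replicate 1 or 3, without siTAZ replicate 2 or 3, and with RLE (adjusted p = 0.0516) or upper-quartile scaling (0.07), the 6 libraries alone (0.0781), limma-voom (0.0684) and DESeq2 (0.0855). CCBE1, which promotes the processing of the lymphangiogenic factor VEGFC, stood at 88.05, 89.9 and 81.4 CPM in siYAP, 96.03, 94.03 and 99.2 CPM in siTAZ and 284, 276 and 275 CPM in siNT. It was far below siNT in both knockdowns. The amino acid transporter SLC7A2, the kinase NEK7, the orphan receptor GPRC5A, the zinc finger protein ZNF804A and MYOCD were the other genes named. Upward, the others were PPP1R3B, PSKH1 and COL1A2. Alike here means within 1.5-fold, not without a difference. CCBE1, NEK7, GPRC5A and COL1A2 were called between the knockdowns on separate libraries, at log2 0.16, -0.32, 0.30 and 0.34 (siTAZ over siYAP). MYOCD was called on overlapping libraries, as given above.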

How the data were processed

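Each library came as a table of unnormalized counts by Ensembl gene ID, as the authors deposited it. Per the submitters' processing notes the tools were HTSeq, Picard, SAMtools, STAR 2.5.0c and Trim Galore, without settings; the build named there is mm10, whereas every gene ID is human, so build, annotation and strand setting are not known, and antisense or paralogous genes may share reads. Library totals were 16498508 to 18752805 gene counts. Counts were fitted in R 4.3.3 with edgeR 4.0.16: filterByExpr (minimum count 10, minimum total 15), TMM scaling and a robust quasi-likelihood model over all 9 libraries, with siTAZ minus siYAP as the contrast, Benjamini-Hochberg adjustment over 15560 genes and 95% intervals from the same fit. The script was tested on simulated counts. Replicate libraries differed by more than counting noise (chi-square per degree of freedom 2.54 to 5.03). Named genes were the 12 widest called, non-overlapping differences each way (average log2 CPM of at least 3), up to 8 each way of the opposite-side, TAZ-side and alike patterns, up to 3 called members each way per list, YAP1, WWTR1, the TEADs and 12 stellate cell genes; the text describes a choice of them. Members and lists were chosen with earlier results of these data known. Promoters came from RefSeq and 3′ UTRs from GENCODE 29; the promoters of CCN1 and TAGLN were not used here. Alternatives were RLE and upper-quartile scaling, other filters, a replicate block, the 6 libraries alone, DESeq2 1.42.0, limma-voom (limma 3.58.1), an adjusted p under 0.01, a test against a fold of 1.5, and each library left out.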

Additional observations from a re-analysis of the deposited data

Results flagged for a closer look

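The opposite-side genes drew attention because the effects of the knockdowns differ: every siYAP library lay on one side of the siNT libraries and every siTAZ library on the other, and the siTAZ with siYAP difference was called by edgeR. Above siNT only after siTAZ were EGF at log2 2.96, RARRES2 at 2.91, CD200 at 2.85, VCAN at 2.75, SLC7A5 at 2.70, EDIL3 at 2.66, LMOD1 at 2.29 and KLF9 at 2.0 (siTAZ over siYAP). Above siNT only after siYAP were HSD11B1 at log2 -9.12, CXCL8 at -7.30, CSF2 at -6.99, SERPINB7 at -6.44, MMP1 at -4.65, LINC02154 at -3.56, EPAS1 at -3.14 and LRRC15 at -3.10. The value for HSD11B1 rests on 4 counts over the siTAZ libraries and depends on the model's prior count. Its place below siNT after siTAZ also rests on few counts, 3, 1 and 0 against 7, 5 and 8 in the siNT libraries. Reads in no annotated gene, outside the gene comparison, made up a mean of 6.68% of the siYAP libraries and 5.57% of the siTAZ libraries, above the siNT range of 4.73% to 5.13%.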

How the results depend on the processing

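No named gene of 325 reversed in any of 19 alternatives. In the 18 that kept the fold out of the test, 6 lost their call in at least 1: ADAMTS1, AMOTL1, DUSP1, MYOCD, PDGFRA and SESN1. A test against a fold of 1.5 asks for more than a difference: it called 3633 genes (1736 higher, 1897 lower), 219 list members higher and 217 lower, 3852 genes between siYAP and siNT and 342 between siTAZ and siNT, and 63 of the 325 named genes lost their call. Leaving out genes with either 3′ UTR word or no searched UTR, an alternative added after seeing the data, left 4156 called (2168 higher, 1988 lower) because fewer genes were counted. Leaving out 1 library gave 9832 to 10408 called (4911 to 5213 higher, 4903 to 5195 lower), 9995 to 10655 between siYAP and siNT and 4576 to 5521 between siTAZ and siNT. The sign of the small gap between higher and lower turned without a filter on low counts (5293 and 5247) and with a CPM of at least 1 in 3 libraries (5017 and 4952), and in every fit with 1 library left out except that without siYAP replicate 3 (4911 and 4921), for example 4979 and 4903 without siYAP replicate 1; the counts were 5088 and 5209 with RLE, 5001 and 5287 with upper-quartile scaling, and 4825 and 5106 with DESeq2.

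The replicate numbers did not pair the samples (correlations of same-numbered deviations -0.031 to 0.014). The fit with a replicate block called 10268 genes, 5114 higher and 5154 lower, and changed no call of a named gene.

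Each group holds 3 libraries of 1 cell line after siRNA against 1 target, so effects of the siRNA and of its target cannot be told apart. Values of genes under about 1 CPM rest on few counts, since 1 count was worth 0.0522 to 0.0591 CPM. Levels are relative to each library's total. What separated the replicates is not stated, so the p-values speak for the scatter among libraries, technical or not. Differences of overlapping, antisense and paralogous genes are uncertain.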

Other observations

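Further gene groups had members called in both directions, to be read against 33.0% of all genes higher and 33.2% lower. The stress lists split by member: of 29 amino acid synthesis and ATF4 targets 15 were higher and 9 lower in siTAZ, with the stress genes SESN2, DDIT3 and CEBPB 3.03-fold, 2.68-fold and 2.20-fold lower while the serine enzyme PSPH was 2.16-fold higher. Of 24 chaperone and unfolded protein response genes 11 were higher and 10 lower, the sensor ERN1 (IRE1) 2.63-fold lower and the sensor ATF6 2.49-fold higher. Of 36 cytosolic ribosomal protein genes, whose processed copies make counts uncertain, 19 were higher and 7 lower, none past 2-fold. Genes of quiescent stellate cells and retinoid handling were higher for 8 of 16 and lower for 4: the retinoic acid receptor RARB was 3.90-fold higher, and RELN (reelin) was 7.01-fold lower. Among 13 EMT factors and cadherins 6 were higher and 4 lower, with the cadherin CDH2 2.11-fold higher and the factor ZEB2 1.81-fold lower.

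Of 12 genes of the microRNA machinery 6 were higher and 4 lower, against 33.0% and 33.2% of all genes. The silencing scaffolds TNRC6A, TNRC6B and TNRC6C were 1.47-fold, 2.99-fold and 2.10-fold lower in siTAZ, and the Argonaute gene AGO1 was 1.64-fold higher. Of 7 nuclear lamina and HMGB genes 6 were higher, HMGB1 and HMGB3 by 1.93-fold and 3.13-fold, and 1, LMNA, was lower at log2 -0.27. Of 6 tested portal fibroblast and mesothelial markers 2 were higher and 1 lower, WT1 by 2.04-fold.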
